A study of Mus musculus with 22 samples.

Results

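The imprinted growth genes described here are Igf2, H19, Peg3, Dlk1, Meg3, Mest, Plagl1, Cdkn1c, Grb10 and Igf2r, taken as all probes to which the platform annotation gives any of these 10 symbols. The annotation gave 22 such probes for 9 of the 10 genes, among 45281 probes and 19057 named genes in all. H19 was not analysed here, because no probe carried its symbol. A probe was kept for testing where its detection p was under 0.05 on at least 3 of the 22 arrays, and 12 of the 22 probes, for 7 genes, passed. Igf2, Dlk1 and Cdkn1c each had 1 kept probe, Peg3, Grb10 and Igf2r had 2 and Mest had 3. None of the 3 Meg3 probes and none of the 3 Plagl1 probes was detected on any array. Because a probe could pass mainly through the group in which it was high, treated or control, the kept probes are not a neutral sample of the gene set.

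The arrays measured total RNA of microdissected liver from female C3H mice on Illumina bead arrays. TCPOBOP is an agonist of the mouse constitutive androstane receptor (CAR) and promotes liver tumours without damaging DNA, whereas diethylnitrosamine (DENA) is a genotoxic liver carcinogen. The 3 control arrays came from age-matched mice given DMSO in corn oil. The treated groups held 3 arrays after TCPOBOP alone for 28 weeks, 7 arrays after TCPOBOP alone for 42 weeks, and 9 arrays after a single intraperitoneal injection of DENA at 90 mg/kg, 1 week of recovery and TCPOBOP for 28 weeks. TCPOBOP was given into the stomach at 3 mg/kg weekly in every treated group. No allele or transgene was named for any group. The groups of TCPOBOP for 42 weeks and of DENA plus TCPOBOP are called the tumour regimens here, since the labels report carcinomas at the end of both protocols. The labels give no lesion type for a single array and no treatment time for a single control. They number the arrays of a group as biological replicates without naming animals, so p-values measure the spread between these samples. In these bulk samples, fewer cells of a type and less RNA per cell cannot be told apart.

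Imprinted genes are expressed mainly from the copy inherited from the mother or from the father. Many of them set fetal growth, and some share a cluster under a common control region, as Igf2 does with H19 and Dlk1 with Meg3. Igf2, a growth factor made from the paternal copy, is abundant in fetal liver and is shut down in rodent liver after birth. Igf2r, made mainly from the maternal copy in mice, binds IGF2 at the cell surface and carries it to the lysosome. The arrays measured the summed RNA of both copies and carry no information on which copy was used. Igf2, H19, Peg3 and Cdkn1c lie on mouse chromosome 7, Dlk1 and Meg3 on 12, Mest on 6, Plagl1 on 10, Grb10 on 11 and Igf2r on 17.

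Between 34.8% and 42.6% of all probes were detected per array, and the lowest signal of a detected probe lay between 6.94 and 7.08 on the log2 scale. Arrays of a group correlated with each other at Pearson r between 0.948 and 0.991. Defining hepatocyte markers such as Alb and Apoa1 were detected on every array, and the mean log2 signal of 9 hepatocyte markers was 14.04 to 14.13 on control arrays, 13.69 to 13.81 at 28 weeks, 13.38 to 13.66 at 42 weeks and 13.20 to 13.92 after DENA plus TCPOBOP. Against controls, 3 of the 9 were called lower at 42 weeks and 2 after DENA plus TCPOBOP, where 15.6% and 12.7% of all probes were lower. The mean of 11 endothelial markers was 8.75 to 8.90 on control arrays, 8.62 to 8.84 at 28 weeks, 7.46 to 8.42 at 42 weeks and 7.57 to 8.51 after DENA plus TCPOBOP. The mean of 12 stellate cell and fibroblast markers was 8.74 to 8.79, 8.76 to 8.85, 7.86 to 8.85 and 7.45 to 8.62 in the same order. The mean of 6 cell cycle markers was 6.84 to 6.97, 7.86 to 8.10, 7.62 to 8.77 and 7.16 to 8.79. Of the Kupffer cell and macrophage markers, 6 of 9 were measured, with a mean of 8.20 to 8.40, 9.01 to 9.35, 7.42 to 8.47 and 7.63 to 8.93. Of the bile duct and progenitor markers, 4 of 8 were measured, with a mean of 7.63 to 7.74, 7.60 to 7.79, 7.66 to 8.42 and 7.19 to 8.99. Of the lymphocyte markers, 4 of 8 were measured, with a mean of 7.07 to 7.19, 7.11 to 7.26, 6.76 to 7.22 and 6.86 to 7.12. Cd5l, a Kupffer cell marker, Epcam, Ms4a1 and Cd8a were detected on no array.

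The sequences just upstream of the annotated starts of Igf2, Peg3 and Igf2r are shown because these were the members that rose. They are the 150 bases before each start, read 5′ to 3′ on the strand of the gene from RefSeq on GRCm38.p6, with CpG dinucleotides, the sites of the DNA methylation on which imprinting rests, in capitals.
Igf2 start 1 (chr7:142666817-142666966, minus strand): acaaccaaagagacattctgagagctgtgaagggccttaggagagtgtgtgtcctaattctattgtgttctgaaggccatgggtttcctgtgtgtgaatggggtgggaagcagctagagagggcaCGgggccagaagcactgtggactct
Igf2 start 2 (chr7:142661272-142661421, minus strand): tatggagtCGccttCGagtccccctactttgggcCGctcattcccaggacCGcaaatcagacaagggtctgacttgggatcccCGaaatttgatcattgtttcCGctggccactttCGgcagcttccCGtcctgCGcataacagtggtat
Igf2 start 3 (chr7:142658805-142658954, minus strand): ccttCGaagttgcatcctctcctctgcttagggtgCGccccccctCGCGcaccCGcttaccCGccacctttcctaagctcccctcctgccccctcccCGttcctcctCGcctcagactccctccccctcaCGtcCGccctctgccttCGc
Igf2 start 4 (chr7:142657497-142657646, minus strand): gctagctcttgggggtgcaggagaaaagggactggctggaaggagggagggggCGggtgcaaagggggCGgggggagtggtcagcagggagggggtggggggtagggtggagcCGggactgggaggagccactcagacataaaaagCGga
Peg3 (chr7:6730420-6730569, minus strand): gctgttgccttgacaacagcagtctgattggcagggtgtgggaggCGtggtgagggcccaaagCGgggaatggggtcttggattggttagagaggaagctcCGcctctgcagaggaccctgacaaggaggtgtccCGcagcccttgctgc
Igf2r (chr17:12769707-12769856, minus strand): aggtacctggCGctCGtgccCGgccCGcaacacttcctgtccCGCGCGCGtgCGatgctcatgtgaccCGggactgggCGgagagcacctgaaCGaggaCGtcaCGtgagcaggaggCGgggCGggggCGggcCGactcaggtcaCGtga
Igf2 has 4 annotated starts in this table, numbered along the direction of transcription, and which of them gave the array signal was not tested. Over the 250 bases before each start, the 4 Igf2 windows held 1, 10, 22 and 6 CpGs, the Peg3 window held 8 and the Igf2r window held 27. The median over 32851 RefSeq windows of this length was 6 CpGs, and 8.56% of windows held at least as many as Igf2r. The half-site AGGTCA of nuclear receptors such as CAR, searched on both strands, was present in the first Igf2 window and in the Igf2r window, against 14.0% of all windows. A direct repeat of this half-site with 4 bases between its copies was in 0.0152% of all windows and in none of those of the 3 genes. Windows were also in the table for Dlk1, Meg3, Mest, Plagl1 and Grb10.

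The growth factor Igf2 was low in controls and after 28 weeks of TCPOBOP, and ranged from such low levels to very high ones across the arrays of the tumour regimens. Its log2 signal was 7.66, 7.34 and 7.24 on the 3 control arrays, and 7.51, 8.05 and 7.92 on the 3 arrays of TCPOBOP for 28 weeks. On the 7 arrays of TCPOBOP for 42 weeks, the lowest log2 signal was 7.54, the median 10.31 and the highest 13.10. On the 9 arrays of DENA plus TCPOBOP, these were 9.33, 11.01 and 15.27. All 9 DENA plus TCPOBOP arrays lay above every control and every 28-week array, whereas 1 of the 7 arrays at 42 weeks, replicate 4, lay within the control range.

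**Figure D1:**
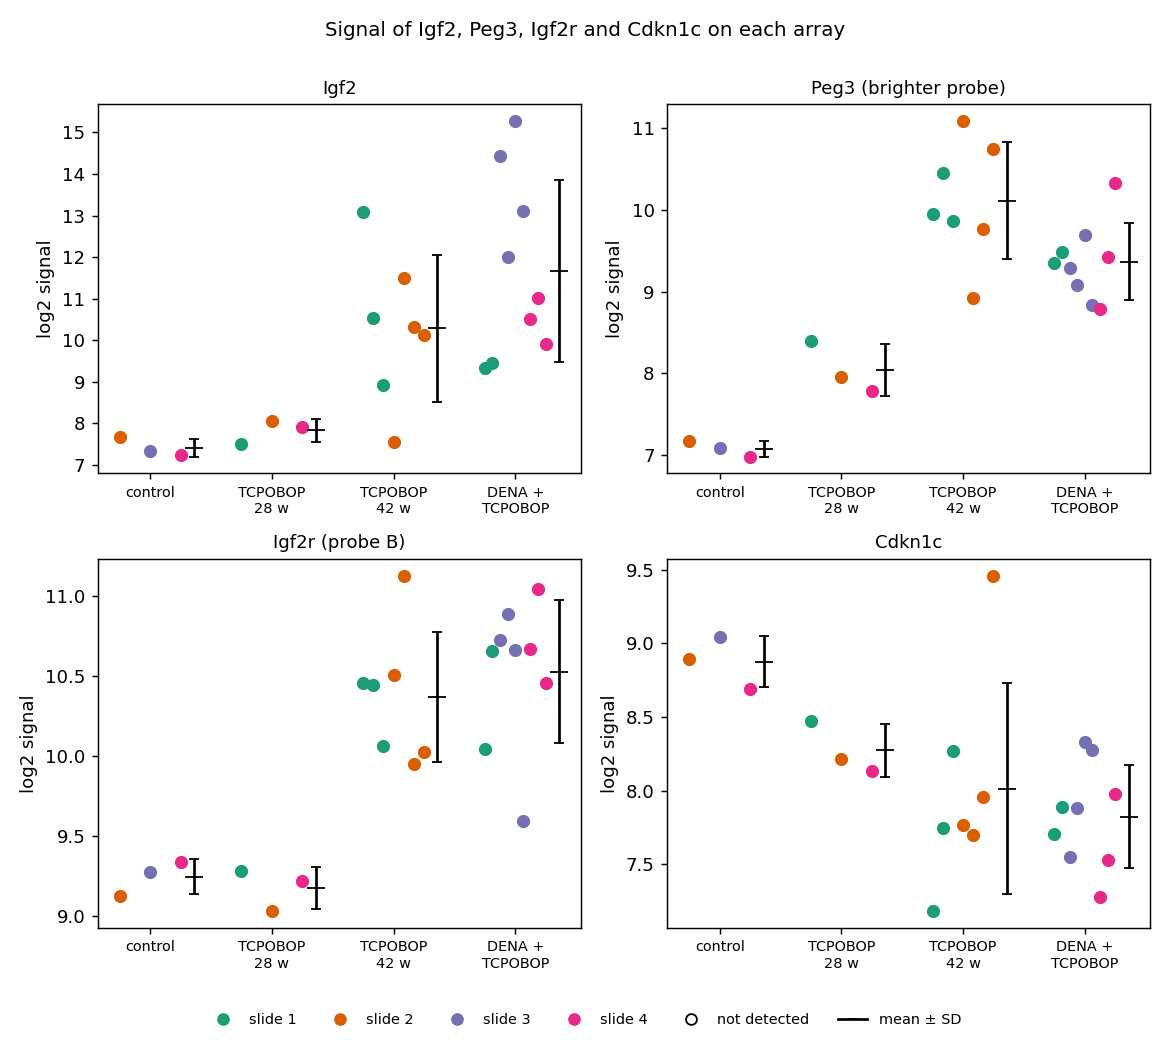
Log2 signal (vertical axes) of Igf2, the brighter Peg3 probe, 1 of the 2 Igf2r probes and Cdkn1c on each of the 22 arrays by group, coloured by slide, with group means ± SD as black bars. Igf2 spans 7.54 to 13.10 at 42 weeks and 9.33 to 15.27 after DENA plus TCPOBOP, while Peg3 and Igf2r in these groups lie above all control arrays.

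Igf2 was higher by 4.25 ± 1.10 (SE) on the log2 scale after DENA plus TCPOBOP than in controls, a 19.1-fold difference (limma, adjusted p = 0.00696, n = 9 and 3). An exact two-sided permutation test of Igf2 alone, adjusted over the 6 comparisons of groups, gave p = 0.0409 for this difference. The difference at 42 weeks was 2.88 ± 1.14 and did not pass (limma adjusted p = 0.0630, n = 7 and 3), although 6 of 7 arrays lay above all controls. It passed with another background correction (3.80, limma adjusted p = 0.0174), with slide as a block (4.03, 0.0130), in a fit of these 2 groups alone (0.0363) and without replicate 4 at 42 weeks (3.33, 0.0278). It did not pass under the other 5 settings (limma adjusted p 0.0520 to 0.137), without any other array (0.0504 to 0.157) or in the exact permutation test (adjusted p = 0.0833). At 28 weeks the difference was 0.41 ± 1.35 (limma adjusted p = 0.935). This SE pools the spread of all 4 groups. The SDs were 0.22 in controls, 0.28 at 28 weeks, 1.77 at 42 weeks and 2.18 after DENA plus TCPOBOP. That fit could therefore not call a 28-week difference of this size, and a fit of controls and 28 weeks alone did not call it either. In order of mean level the groups ran from control through TCPOBOP for 28 weeks and for 42 weeks to DENA plus TCPOBOP, and no neighbours in this order differed past the threshold. The closest to it was 42 against 28 weeks, at 2.46 ± 1.14 (limma adjusted p = 0.179).

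Igf2 also varied by slide within DENA plus TCPOBOP. The 4 arrays of that group on slide 3 read 14.44, 12.00, 15.27 and 13.11, the 2 on slide 1 read 9.33 and 9.44, and the 3 on slide 4 read 10.51, 11.01 and 9.90. These slides did not overlap within the group. Against the single control on the same slide, the group was higher by 6.37 on slide 3 and by 3.23 on slide 4, and the 42-week group was higher by 2.21 on slide 2. Slide 1 held no control. The difference from controls with slide as a block was 3.92 (limma adjusted p = 0.00543). The difference between DENA plus TCPOBOP and 42 weeks, 1.38 ± 0.83 (limma adjusted p = 0.373), turned to -0.10 with slide as a block. The part of the slide in the Igf2 spread was not tested further.

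The spread of Igf2 within the tumour regimens was wide on the linear scale. The highest array exceeded the lowest 61.3-fold after DENA plus TCPOBOP and 46.9-fold at 42 weeks, against 1.34-fold among controls and 1.45-fold at 28 weeks. The genes most like Igf2 over the 16 tumour-regimen arrays, each taken as its deviation from its group mean, were Pggt1b at Pearson r = 0.859, Rrm2 at 0.844 and Ciao2a at 0.821, of 11974 genes compared. The highest of so many correlations over 16 arrays can be large without any relation. No chance level was computed for such values, here or for the other members. Rrm2, a subunit of the enzyme that makes deoxyribonucleotides, was among the cell cycle markers. It was called higher than controls in all 3 treated groups, also at 28 weeks (1.38 ± 0.28, limma adjusted p = 0.00412), where Igf2 was not. The part of cell proliferation in the Igf2 level was not tested.

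Igf2r, the receptor that clears IGF2, was higher in both tumour regimens and not at 28 weeks. Its log2 signal with probe ILMN_2931096 was 9.13, 9.28 and 9.34 in controls, and 9.28, 9.03 and 9.22 after 28 weeks of TCPOBOP. At 42 weeks the lowest, median and highest arrays read 9.95, 10.44 and 11.13, and after DENA plus TCPOBOP 9.60, 10.66 and 11.04. Both tumour regimens lay wholly above the controls and the 28-week arrays. The second probe, ILMN_2931095, followed the first over the 22 arrays at Pearson r = 0.971.

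With ILMN_2931096, Igf2r rose by 1.12 ± 0.25 at 42 weeks (limma adjusted p = 0.00170) and by 1.28 ± 0.24 after DENA plus TCPOBOP (0.000460), which are 2.18- and 2.43-fold. With ILMN_2931095 the differences were 1.17 ± 0.23 (limma adjusted p = 0.000647) and 1.21 ± 0.23 (0.000428). Differences at 28 weeks were -0.07 and -0.03 (limma adjusted p = 0.951 and 0.976). Within slides, the 2 probes were higher than the single control by 1.28 and 1.48 at 42 weeks on slide 2, and by between 0.96 and 1.39 after DENA plus TCPOBOP on slides 3 and 4. The 2 tumour regimens differed by 0.16 ± 0.18 with ILMN_2931096, with a 95% interval from -0.22 to 0.54. The genes most like Igf2r over the 16 arrays were Dmkn at Pearson r = 0.866, Csad at 0.856 and Egfl8 at 0.845.

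Peg3, a paternally expressed zinc finger protein, was near background in controls, somewhat higher at 28 weeks and high in both tumour regimens. Its brighter probe, ILMN_1245246, read 7.18, 7.09 and 6.98 on the control arrays and 8.39, 7.95 and 7.78 on the 28-week arrays. At 42 weeks the lowest, median and highest log2 signals were 8.92, 9.95 and 11.08, and after DENA plus TCPOBOP they were 8.78, 9.35 and 10.33. Each treated group lay above all controls, and both tumour regimens lay above all 28-week arrays.

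Peg3 rose by 3.03 ± 0.34 at 42 weeks, an 8.15-fold difference (limma adjusted p = 1.01e-06), and by 2.28 ± 0.33 or 4.86-fold after DENA plus TCPOBOP (2.58e-05). At 28 weeks the difference was 0.96 ± 0.40 and did not pass (limma adjusted p = 0.208). It passed in a fit of these 2 groups alone (0.00278) and with another background correction, where it was 1.99 (limma adjusted p = 0.00958), and in no other setting tried. Peg3 was higher at 42 than at 28 weeks by 2.07 ± 0.34 (limma adjusted p = 0.000566). After DENA plus TCPOBOP its difference from 42 weeks was -0.75 ± 0.25, which did not pass (limma adjusted p = 0.103). That difference passed without replicate 5 at 42 weeks (adjusted p = 0.0428) or without replicate 9 of DENA plus TCPOBOP (0.0499), both by limma. Within slides, Peg3 exceeded the single control by 2.95 at 42 weeks on slide 2, and by 2.14 and 2.53 after DENA plus TCPOBOP on slides 3 and 4.

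The dimmer Peg3 probe, ILMN_2677270, was undetected on all 3 control arrays and detected on all 16 arrays of the tumour regimens. Its signal was at least 1.95-fold higher at 42 weeks (limma adjusted p = 0.00159) and at least 1.68-fold higher after DENA plus TCPOBOP (0.00764). Such bounds set the treated mean against the lowest signal of detected probes on the control arrays or the probe's own, whichever was higher. The dimmer Peg3 probe was kept through the groups in which it was high, so its calls are no separate support for the Peg3 rise. The 2 kept Peg3 probes followed each other at Pearson r = 0.915 over 22 arrays, and the other 2 Peg3 probes were detected on no array. The genes most like Peg3 over the 16 arrays were Notch4 at Pearson r = 0.834, Emcn at 0.831 and Ackr2 at 0.824. Notch4 and Emcn are known from endothelium. Of the 11 endothelial markers, 6 were lower and 0 higher at 42 weeks, and 5 were lower and 0 higher after DENA plus TCPOBOP, where 15.6% and 12.7% of all probes were lower. The part of endothelial cells in the Peg3 spread was not tested.

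Cdkn1c, a maternally expressed inhibitor of cyclin-dependent kinases, ran the other way. Its log2 signal was 8.89, 9.04 and 8.69 in controls and 8.48, 8.21 and 8.13 at 28 weeks. The lowest, median and highest arrays were 7.18, 7.76 and 9.46 at 42 weeks, and 7.28, 7.88 and 8.33 after DENA plus TCPOBOP. All 9 DENA plus TCPOBOP arrays and 6 of 7 at 42 weeks lay below every control, whereas replicate 7 at 42 weeks was the highest of all 22 arrays.

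Cdkn1c fell by 1.05 after DENA plus TCPOBOP (SE 0.30, limma adjusted p = 0.0135), a 2.08-fold decrease. At 42 weeks the difference was -0.87 ± 0.31 (limma adjusted p = 0.0408). The first of these calls was lost without control replicate 1 (limma adjusted p = 0.0526) or 2 (0.0713). The second was lost under 4 of 8 other settings and in 8 of the 10 fits that left out 1 array. At 28 weeks the difference was -0.60 ± 0.37 (limma adjusted p = 0.447), with all 3 arrays below the controls, and among the settings tried it passed only in a fit of these 2 groups alone (0.0145). Within slides, the difference from the single control was -1.03 and -1.10 after DENA plus TCPOBOP on slides 3 and 4 and -0.67 at 42 weeks on slide 2. The genes most like Cdkn1c over the 16 arrays were Dpysl3 at Pearson r = 0.890, Thbs2 at 0.874 and Mmp2 at 0.870. Thbs2 and Mmp2 are made by fibroblasts and stellate cells in liver. Of 12 stellate cell and fibroblast markers, 4 were lower and 2 higher at 42 weeks, and 5 were lower and 0 higher after DENA plus TCPOBOP. Of all probes, 15.6% were lower and 13.2% higher at 42 weeks, and 12.7% lower and 10.4% higher after DENA plus TCPOBOP. The part of stellate cells and fibroblasts in the Cdkn1c level was not tested.

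**Figure D2:**
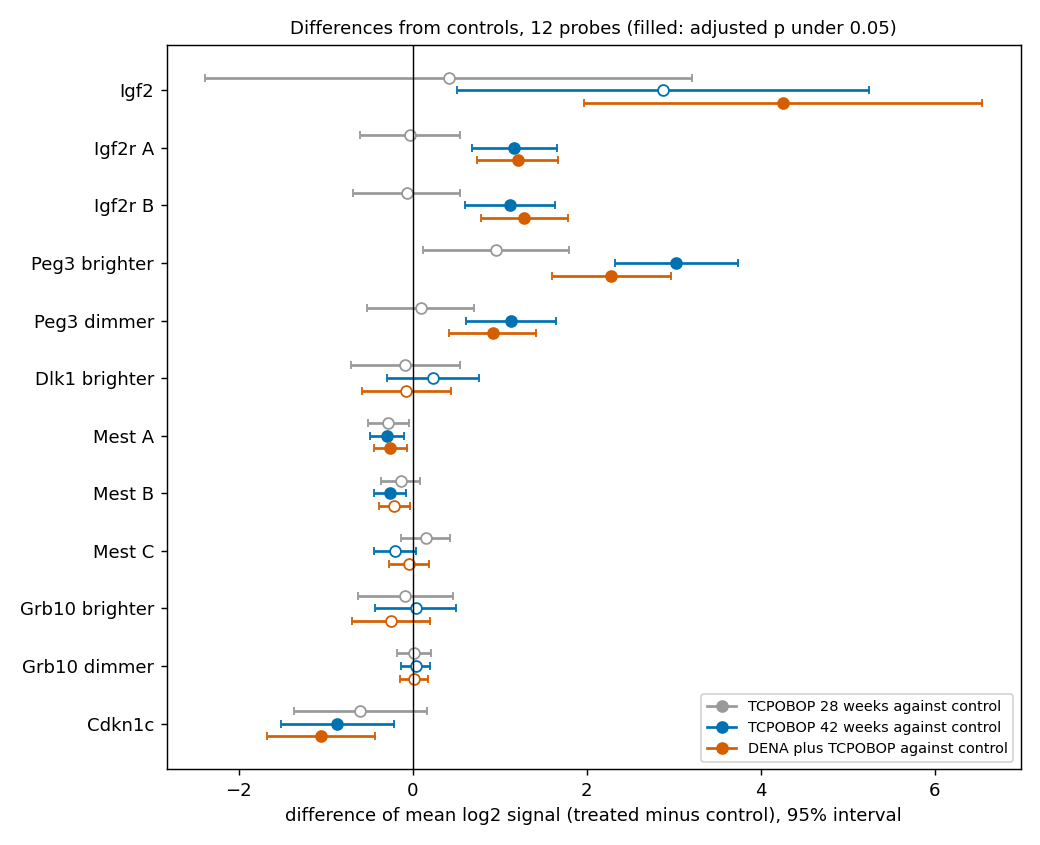
Difference of mean log2 signal from controls (horizontal axis, treated minus control) with its 95% interval for the 12 kept probes in the 3 treated groups; filled points passed at an adjusted p under 0.05. Igf2r and Peg3 lie right of 0 in both tumour regimens, Cdkn1c lies left, and Igf2 has the widest intervals, from 1.97 to 6.54 after DENA plus TCPOBOP.

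Grb10, an adaptor that binds the insulin and IGF1 receptors and restrains growth, was not called in any of the 6 comparisons. Its brighter probe, ILMN_2518412, read 8.43, 8.12 and 7.98 in controls and 8.28, 8.18 and 7.82 at 28 weeks. It ranged from 7.90 to 8.49 at 42 weeks and from 7.17 to 8.56 after DENA plus TCPOBOP, so that all 4 groups overlapped. The difference from controls after DENA plus TCPOBOP was -0.25, with a 95% interval from -0.70 to 0.19, and at 42 weeks it was 0.04, with an interval from -0.43 to 0.50. The dimmer probe ILMN_2546546 was detected on 5 of 22 arrays, and the remaining Grb10 probe on none. The genes most like Grb10 were Fbxl14 at Pearson r = 0.876, Anapc4 at 0.791 and AU040320 at 0.780.

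Mest, a paternally expressed member of the hydrolase fold family, lay at the edge of detection, and only small differences were seen. Probe ILMN_2642417 was detected on all 3 control arrays, with a mean log2 signal of 7.11 ± 0.08 (SD, n = 3), and on 1 of 7 arrays at 42 weeks and 1 of 9 after DENA plus TCPOBOP. Its measured difference was -0.29 at 42 weeks (limma adjusted p = 0.0240) and -0.26 after DENA plus TCPOBOP (0.0447), in groups that lay mostly below detection. Probe ILMN_2642418 was detected on 2 of 3 control arrays and on none of the 7 at 42 weeks, where its measured difference was -0.26 (limma adjusted p = 0.0342) and no fold can be given. After DENA plus TCPOBOP its difference of -0.21 did not pass (0.0874). These 2 probes were detected on 5 and 3 of the 22 arrays and so were kept mainly through the controls, the group in which they were highest, so their calls do not show how far Mest changed. The third probe, ILMN_2846904, was detected on 13 of 22 arrays and not called in any comparison of the main fit. Its largest difference, -0.35 for 42 against 28 weeks, came close (limma adjusted p = 0.0512), with detection on 1 of 7 and 3 of 3 arrays. It was called lower there with the brightest probe of each gene. Another background correction also gave 1 lower member call in that comparison, as did the fits without replicate 2 or without replicate 6 at 42 weeks. The remaining settings other than left-out arrays gave none. Each of the 3 calls against controls was lost with slide as a block (limma adjusted p = 0.0767, 0.0530 and 0.144, in the order given) and without control replicate 1 (0.113, 0.200 and 0.126). The Mest probes followed each other only weakly, at Pearson r between 0.163 and 0.311. The genes most like ILMN_2846904 were Igfbp7 at Pearson r = 0.823, Timp3 at 0.791 and Kmt2e at 0.770.

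Dlk1, a paternally expressed membrane protein of fetal liver progenitors, was below detection except on single tumour-regimen arrays. Probe ILMN_2771738 was detected on 3 of 22 arrays. These were replicate 5 at 42 weeks, at a log2 signal of 8.57, replicate 1 at 42 weeks, at 7.21, and replicate 6 of DENA plus TCPOBOP, at 7.20. On the other 19 arrays it read between 6.62 and 6.98. The second Dlk1 probe, ILMN_1244618, was detected only on replicate 5 at 42 weeks, at 7.31. No comparison of groups was called for Dlk1, and the difference at 42 weeks was 0.23 ± 0.26 (limma adjusted p = 0.541). The 3 genes most like it over the 16 arrays, Tprg, Acsm4 and Rnase2a, were at Pearson r = 0.870, 0.868 and 0.868, over arrays of which 13 did not detect Dlk1. Replicate 5 at 42 weeks also had the highest Igf2r (11.13), the second highest Igf2 (11.49) and the lowest Peg3 (8.92) of its group.

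**Figure D3:**
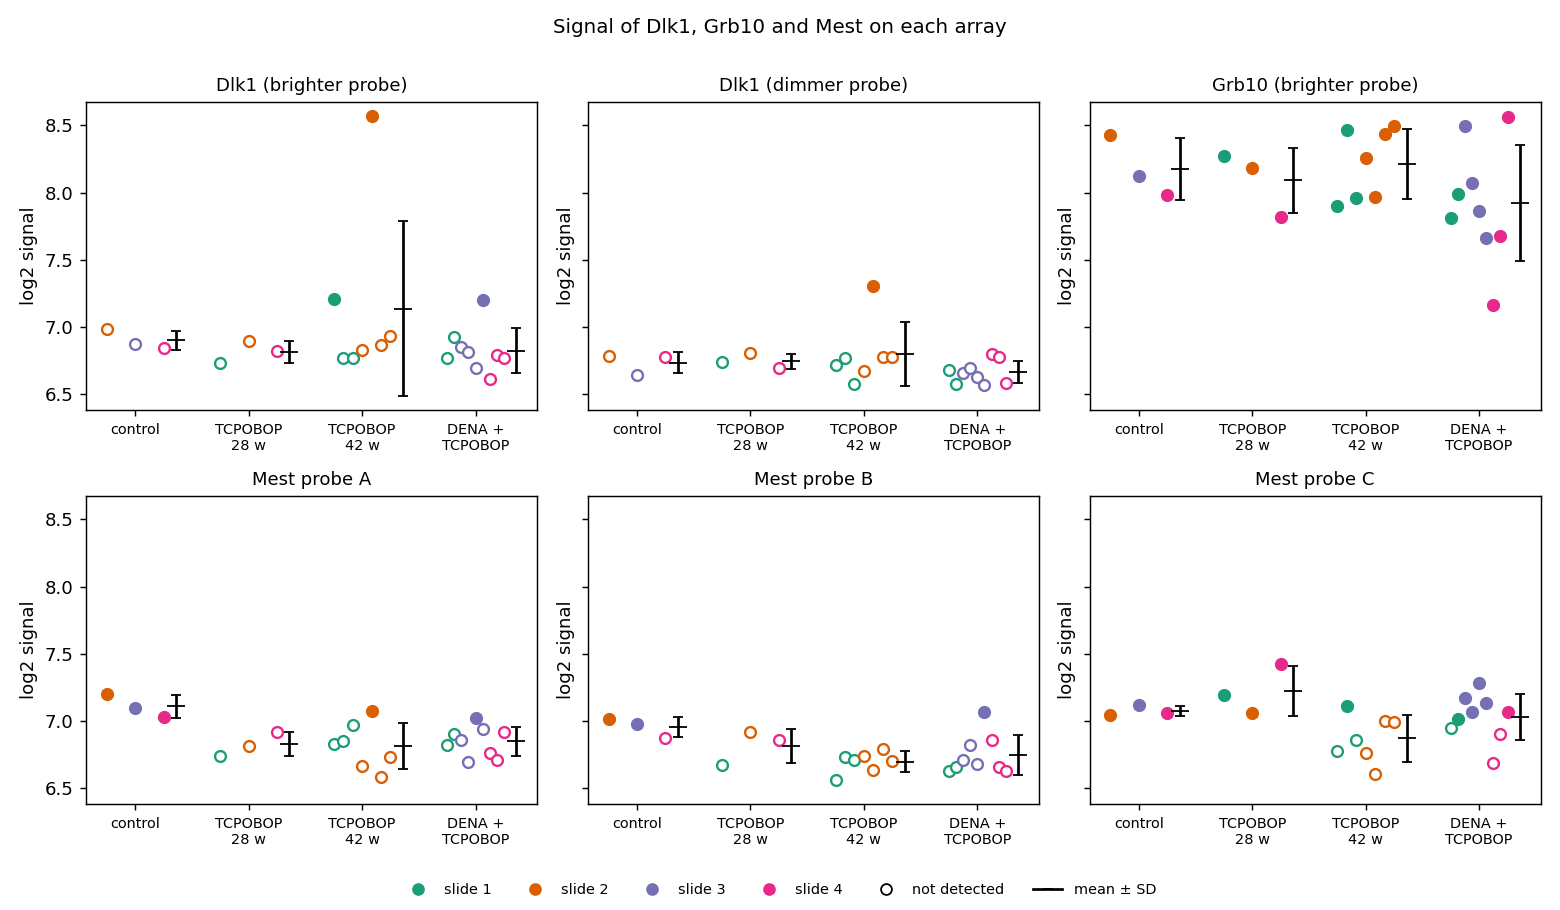
Log2 signal (vertical axes, common scale) of 2 Dlk1 probes, the brighter Grb10 probe and 3 Mest probes on each array by group, coloured by slide; open points were not detected and black bars are means ± SD. Dlk1 stands out on replicate 5 at 42 weeks (8.57 and 7.31), while Grb10 overlaps between all groups.

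Meg3, the maternally expressed long noncoding RNA encoded beside Dlk1, had log2 signals from 6.59 to 7.03 over its 3 probes, and Plagl1, a zinc finger transcription factor, from 6.46 to 6.96. Both were undetected on all 22 arrays, so only an upper bound near the detection limit can be given.

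In counts of the 12 kept probes, none was called at 28 weeks, where 5.19% of all 22622 kept probes were called by limma (2.77% higher, 2.42% lower). Of the 12, 2 had an unadjusted limma p under 0.05 there. At 42 weeks 4 were higher and 3 lower, where 28.8% of all probes were called, 13.2% of all probes higher and 15.6% lower. After DENA plus TCPOBOP 5 were higher and 2 lower, where 23% were called, 10.4% higher and 12.7% lower. Against 28 weeks, 4 were higher at 42 weeks (11.5% of all probes called, 5.22% higher and 6.31% lower) and 5 after DENA plus TCPOBOP (10.8% called, 4.96% higher and 5.85% lower), and none was lower. Between the tumour regimens none was called (2.04% of all probes called, 1.07% higher and 0.973% lower), and 1 of the 12 had an unadjusted limma p under 0.05. The share of all probes under the unadjusted threshold was not counted, so these unadjusted counts have no background to be read against. Since probes of a gene share their target, the counts come to 3 genes at most in 1 direction. The median difference from controls of the 12 probes was 0.13 at 42 weeks and -0.02 after DENA plus TCPOBOP, beside -0.0035 and 0.0049 for all probes. The 3 comparisons with controls share the control arrays, and those with 28 weeks share the 28-week arrays. Against 28 weeks, 5 of the 6 Kupffer cell and macrophage markers were lower and 0 higher in each tumour regimen, and their part in the differences of the members was not tested.

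Igf2 and Peg3, which both rose after DENA plus TCPOBOP, were not highest on the same arrays. Within 42 weeks (n = 7), Pearson r between them was -0.56 (exact permutation p = 0.178) and Spearman rho was -0.50 (exact permutation p = 0.267). Within DENA plus TCPOBOP (n = 9), r was -0.14 (exact permutation p = 0.755) and rho -0.15 (0.708). Adjusted over these 2 relations, the exact p-values of r were 0.356 and 0.755, and those of rho 0.533 and 0.708. Without the 2 arrays farthest from the median Igf2 level, r was -0.44 and -0.55. Replicate 4 at 42 weeks had the lowest Igf2 of its group (7.54) and the highest Peg3 (11.08), and replicate 5 of DENA plus TCPOBOP had the highest Igf2 of all arrays (15.27) with a Peg3 of 9.69.

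**Figure D4:**
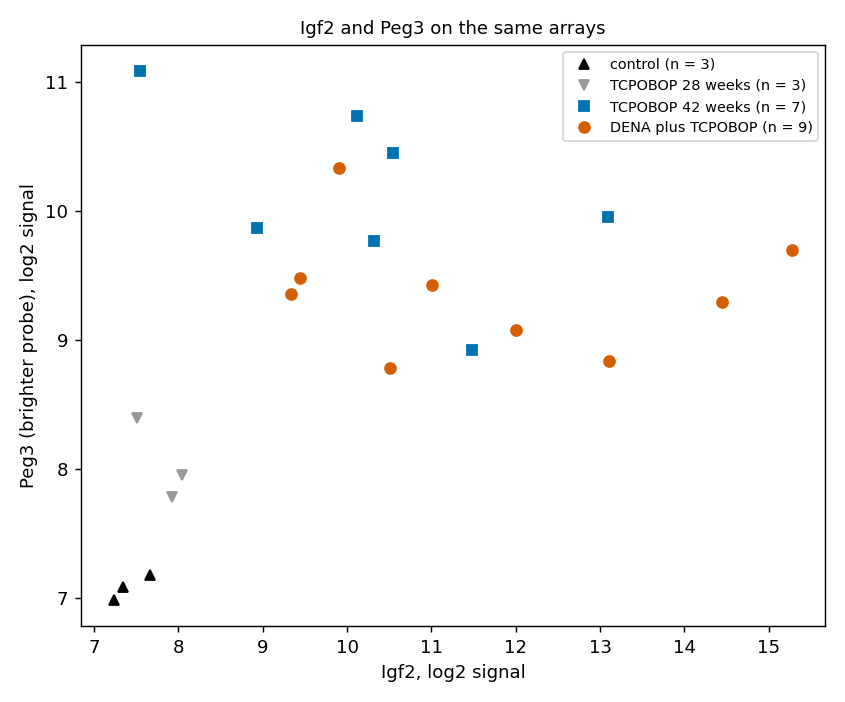
Log2 signal of Igf2 (horizontal axis) against that of the brighter Peg3 probe (vertical axis) on each of the 22 arrays, marked by group. Controls and 28-week arrays lie at the lower left, and within the tumour regimens the array with the highest Peg3 (11.08) has an Igf2 of 7.54.

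The partners of IGF2 were looked at through a list of 19 genes, of which 16 were measured. At 42 weeks 3 rose and 4 fell, and after DENA plus TCPOBOP 2 rose and 4 fell, with list medians of 0.08 and -0.06, beside 28.8% and 23% of all probes called in either direction. Igf1, the postnatal growth factor made by hepatocytes, fell, with a difference of -3.10 at 42 weeks (limma adjusted p = 0.000447) and -3.30 after DENA plus TCPOBOP (0.000208). Its arrays ranged from 13.30 to 13.57 in controls, from 9.26 to 11.70 at 42 weeks and from 8.35 to 12.61 after DENA plus TCPOBOP. Igfals, which holds IGFs in the blood complex, fell too, with differences of -2.19 (limma adjusted p = 4.26e-05) and -2.36 (1.34e-05). Igfbp1, an IGF binding protein, rose by 2.27 (limma adjusted p = 0.00176) and 2.64 (0.000403). Igfbp5, another binding protein, fell by 2.21 after DENA plus TCPOBOP (limma adjusted p = 1.01e-05). At 28 weeks it was the only gene of the list that was called, where 5.19% of all probes were called and 2.42% were lower. Its difference there was -1.49 (limma adjusted p = 0.0166). That call was lost with another background correction (0.0646) and without control replicate 2 (0.0515) or 3 (0.0645) or 28-week replicate 1 (0.0948) or 3 (0.105), each by limma. Igf1r, the receptor through which IGF2 signals, was not called in any comparison and differed from controls by 0.00 at 42 weeks and -0.19 after DENA plus TCPOBOP (limma adjusted p = 0.995 and 0.781). Its highest array, at 9.75, was replicate 6 at 42 weeks. Without it the difference at 42 weeks was -0.38 (limma adjusted p = 0.0273).

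Of 10 measured genes on a list of fetal liver genes and their repressors, 4 rose and 6 were not called in each tumour regimen, beside 13.2% of all probes higher at 42 weeks and 10.4% after DENA plus TCPOBOP. Igf2bp3 is on this list and on that of the IGF2 partners, and it is counted among the genes that rose in both. At 28 weeks 1 rose, beside 2.77% of all probes. Igf2bp3, which binds Igf2 messenger RNA, was undetected in all controls and at least 3.67-fold higher at 42 weeks (limma adjusted p = 0.0155) and at least 3.28-fold higher after DENA plus TCPOBOP (0.0244). The first of these calls was lost with slide as a block (limma adjusted p = 0.109) and without control replicate 3 (0.0597), and the second without any 1 of the 3 controls (0.0678 to 0.0924). Gpc3, a fetal cell surface proteoglycan, rose by 3.05 and 3.92 (limma adjusted p = 0.0222 and 0.00396), and Afp, fetal alpha-fetoprotein, by 1.71 and 1.76 (0.0115 and 0.00921). The Gpc3 call at 42 weeks was lost without any 1 control (limma adjusted p 0.0581 to 0.0725), and both Afp calls were lost without control replicate 2 or 3 (0.0531 to 0.0600). Golm1, a Golgi membrane protein, rose by 1.75 at 28 weeks (limma adjusted p = 0.00207), 3.79 at 42 weeks (2.16e-09) and 3.24 after DENA plus TCPOBOP (1.43e-08). The postnatal repressors Zhx2 and Zbtb20 were not called against controls, with differences between -0.36 and 0.22 in the 3 treated groups.

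Among other imprinted genes, 26 of a list of 53 were measured. At 28 weeks 0 rose and 1 fell, at 42 weeks 2 rose and 5 fell, and after DENA plus TCPOBOP 3 rose and 7 fell, with list medians of -0.09, -0.03 and -0.02. Of all probes, 2.77% were higher and 2.42% lower at 28 weeks, 13.2% higher and 15.6% lower at 42 weeks, and 10.4% higher and 12.7% lower after DENA plus TCPOBOP. Phlda2, a maternally expressed brake on placental growth in the cluster that also holds Cdkn1c, was undetected in controls. It was at least 2.83-fold higher at 42 weeks (limma adjusted p = 0.000500) and at least 2.47-fold higher after DENA plus TCPOBOP (0.00140). Impact, a paternally expressed regulator of translation, rose by 1.33 (limma adjusted p = 0.00216) and 1.37 (0.00153). Dcn, a matrix proteoglycan that is also on the stellate cell marker list, fell, with differences of -2.45 (limma adjusted p = 0.00332) and -2.14 (0.00880). Dhcr7, an enzyme of cholesterol synthesis, fell by 1.43 at 42 weeks (limma adjusted p = 0.00195). Ndn, a paternally expressed growth suppressor, fell, with a difference of -1.22 after DENA plus TCPOBOP (limma adjusted p = 1.69e-08) and -0.49 at 28 weeks (0.0226). The 28-week call of Ndn was lost with 4 other settings (limma adjusted p 0.0518 to 0.184) and without control replicate 1 (0.125) or 2 (0.0614) or 28-week replicate 1 (0.0567) or 2 (0.109).

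Of the genes that maintain imprints and DNA methylation, 11 of 17 were measured. Uhrf1, which brings the maintenance methyltransferase to replicated DNA, rose by 1.21 at 28 weeks, 1.40 at 42 weeks and 1.47 after DENA plus TCPOBOP (limma adjusted p = 0.0311, 0.000587 and 0.000321). The 28-week call of Uhrf1 was lost under median scaling (limma adjusted p = 0.110), with no filter (0.0568) and without any 1 array of its 2 groups (0.0779 to 0.101). Dnmt3b, a de novo methyltransferase, fell, with differences of -0.95, -1.0 and -1.0 (limma adjusted p = 0.00680, 0.000170 and 0.000140), and its 28-week call was lost under median scaling (0.0738). Ctcf, the insulator protein that binds the control region between Igf2 and H19, fell, with differences of -0.82 at 42 weeks and -0.67 after DENA plus TCPOBOP (limma adjusted p = 0.000172 and 0.00103). Smchd1, a chromatin protein needed at some imprinted clusters, rose by 0.74 at 42 weeks (limma adjusted p = 0.00168). In all, 1 rose and 1 fell at 28 weeks, 2 rose and 2 fell at 42 weeks, and 1 rose and 2 fell after DENA plus TCPOBOP, where 5.19%, 28.8% and 23% of all probes were called.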

How the data were processed

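Per the labels, biotinylated cRNA of each sample was hybridised to an Illumina bead array, and per the submitters' processing notes signals were read with BeadStudio 3.0.19.0. The authors deposited a normalized intensity table and a non-normalized intensity table for 22 arrays, each with a detection p-value per probe. Every array of the normalized table spans 80.3 to 46395, the same lowest and highest value, and the normalization method is not given in the sources used here. The log2 values were computed here from the deposited normalized intensities, with a floor of 1 that no value reached. The title group that names no treatment was read as the 3 controls that the design text counts.

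Probes were named from the platform annotation, with symbols updated through Entrez numbers: 34885 of 45281 probes had 1 symbol, 18 several and 10378 none. The 22622 probes detected (p under 0.05) on at least 3 arrays were fitted in 1 model of 4 groups with limma 3.58.1 (lmFit, eBayes) in R 4.3.3, with Benjamini-Hochberg adjustment over all of them within each comparison and a threshold of 0.05. The number of arrays limits the precision. The script was tested on simulated data. The exact permutation test of Igf2 between groups was run in R, and those of correlations used scipy. Promoter windows came from RefSeq on GRCm38.p6. Intervals are at 95%.

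The members and the gene and marker lists were chosen with earlier results of these data known. Beside the members, up to 4 called genes of each list with the largest change per comparison with controls were named (where none was called, 2 of lowest p), 7 fixed genes (Afp, Gpc3, Igf1, Igf1r, Igf2bp3, Zhx2, Zbtb20), and the 3 genes most like each member. The brightest kept probe stands for a gene in lists. Relations of other pairs of members planned with H19 or Meg3 were not computed, since those genes had no kept probe. Alternatives were normexp background correction with quantile normalization (neqc), median scaling, no filter and a stricter filter (9 arrays), the brightest probe of each gene, a block for slide or for replicate number, a fit of 2 groups alone, and leaving out each array. The exact permutation test of Igf2 was added after seeing the data.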

Additional observations from a re-analysis of the deposited data

Results flagged for a closer look

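Among 44 sets of probe values in the 2 groups of 4 to 10 arrays, 4 had an array far from the others by Dixon's criterion, and chance gives about 1 in 20. Dlk1 on replicate 5 at 42 weeks stood apart with both probes, at log2 signals of 8.57 (the next array at 7.21) and 7.31 (the next at 6.78). The remaining 2 lay below detection: Peg3 probe ILMN_1225513 on replicate 4 at 42 weeks, at 6.88 with the next array at 6.72, and Plagl1 probe ILMN_1252582 on replicate 6 of DENA plus TCPOBOP, at 6.60 with the next at 6.74.

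Treated groups differed from each other in 9 differences tested by limma, all against 28 weeks, the group in which the mean of 6 Kupffer cell and macrophage markers was highest (9.01 to 9.35, against 7.42 to 8.47 at 42 weeks and 7.63 to 8.93 after DENA plus TCPOBOP). Of these markers 5 were lower in each of the 2 comparisons, and their part was not tested. Of all probes, 6.31% were lower at 42 than at 28 weeks, and 5.85% were lower after DENA plus TCPOBOP than at 28 weeks. Between 42 and 28 weeks of TCPOBOP the differences of members were Peg3, with 2.07 for ILMN_1245246 and 1.04 for ILMN_2677270, and Igf2r, with 1.20 for ILMN_2931095 and 1.19 for ILMN_2931096, all higher at 42 weeks on 7 of 7 arrays (limma adjusted p 0.000566, 0.00909, 0.00211 and 0.00365). Between DENA plus TCPOBOP and 28 weeks of TCPOBOP these were Igf2 (3.84), Peg3 (1.32 and 0.83) and Igf2r (1.24 and 1.35), all higher after DENA plus TCPOBOP on 9 of 9 arrays (limma adjusted p 0.0273, 0.0125, 0.0292, 0.00133 and 0.00114). The Igf2 difference lost its call without any 1 of the 28-week arrays (limma adjusted p 0.0872 to 0.120) and with slide as a block, where it was 2.50 (0.122). The brighter Peg3 probe lost it without 28-week replicate 2 (0.0633) or 3 (0.0844), the dimmer one without any 1 of the 28-week arrays (0.0908 to 0.114). Other settings also called fewer than 5 member probes in this comparison. Median scaling called 2, the replicate block 2, no filter 3 and the 2 groups alone 4. Of all probes these settings called 1064, 1665, 1909 (of 45281) and 2286, against 2447 in the main fit.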

How the results depend on the processing

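No called difference of a member or list gene changed its direction under the settings and left-out arrays tried, and 43 of the 111 that were not called changed sign in some of them. The Igf1r difference at 42 weeks ranged from -0.38 (without replicate 6, where it passed) to 0.089 with 1 array left out. The Igf2, Peg3 and Igf2r calls after DENA plus TCPOBOP, and the Peg3 and Igf2r calls at 42 weeks, each against controls, held under every setting that tested them and every left-out array. Under median scaling the Igf2r calls between 42 and 28 weeks were lost (limma adjusted p = 0.0684 and 0.0902). For other calls the cause of a change was not tested.

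Of the member probes, neqc called 1 at 28 weeks, beside 1143 of all 22622 probes. Median scaling called 2 for 42 against 28 weeks and 2 for DENA plus TCPOBOP against 28 weeks, beside 1127 and 1064 of 22622 probes. In the latter comparison no filter called 3, beside 1909 of 45281 probes, and the replicate block called 2, beside 1665 of 22622. The brightest probe of each gene, with 7 probes, called 3 at 42 weeks, 4 after DENA plus TCPOBOP and 3 for DENA plus TCPOBOP against 28 weeks. Beside these, 3870, 3222 and 1561 of all 11975 brightest probes were called. The 2 groups alone called 2 at 28 weeks, beside 3020 of 22622 probes. Leaving out 1 array gave 0 at 28 weeks, 4 to 7 at 42 weeks (4 without control replicate 1 or 2), 5 to 8 after DENA plus TCPOBOP, 4 to 5 for 42 against 28 weeks, 2 to 5 for DENA plus TCPOBOP against 28 weeks (2 without 28-week replicate 2 or 3 and 3 without replicate 1), and 0 to 1 between the tumour regimens.

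Of all probes, the fit called 1175 at 28 weeks, 6513 at 42 weeks, 5214 after DENA plus TCPOBOP, 2608 for 42 against 28 weeks, 2447 for DENA plus TCPOBOP against 28 weeks and 461 between the tumour regimens. In the same order, median scaling gave 538, 4228, 3171, 1127, 1064 and 1. The brightest probe of each gene gave 761, 3870, 3222, 1731, 1561 and 217, of 11975 probes tested rather than 22622. Without 1 array the lowest and highest counts against controls were 676 and 767, 4497 and 6784, and 3584 and 5430. For the other comparisons they were 1174 and 2934, 1005 and 2929, and 176 and 1317. Between the tumour regimens no filter gave 237 of 45281 probes, slide as a block 0 and the 2 groups alone 203. The 2 groups alone gave 3020 at 28 weeks. Median scaling moved the share of higher calls from 45.3% to 20.5% for 42 against 28 weeks, from 45.9% to 26.3% for DENA plus TCPOBOP against 28 weeks and from 52.3% to 0% between the tumour regimens. Arrays with the same replicate number did not deviate together (r from -0.22 to 0.18, 5 of 22 pairs over 0.1), so the numbers were not taken to pair the samples, and with the replicate block the Igf2 difference after DENA plus TCPOBOP was 4.41 (limma adjusted p = 0.0242). Dim probes limit what can be said of Mest, Dlk1, Meg3 and Plagl1.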
